A study of Mus musculus with 4 samples.

Results

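Day and night gene expression of the suprachiasmatic nucleus (SCN) was compared in mice that had kept their pituitary gland (non-HPX). The SCN is the small paired nucleus above the optic chiasm that serves as the master circadian clock of mammals. Tissue had been collected at ZT2, early in the light phase, and at ZT14, early in the dark phase, where ZT counts the hours since lights on and light and darkness lasted 12 h each. It was taken by laser microdissection and pooled from 10 animals per time. Whether that number holds for each surgical state is not stated, and the labels give no strain, age or sex. Each time is represented by 1 Affymetrix array, so no spread between animals was measured, and lighting and clock time cannot be told apart. The same times in hypophysectomized mice (HPX, pituitary removed) gave a further pair of arrays that shares no array with the first and is set beside it.

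The values are log2 expression values deposited by the authors. The night change is the ZT14 value minus the ZT2 value, so that 1 stands for a 2-fold difference. Of 22180 genes with a probeset of their own, the 11090 whose higher non-HPX value reached the median of all such values, a floor of 5.94, are described. At that floor the genes Msantd3, Calcrl and Gm19466 lay just inside and Cyp4a12b, Lca5l and Cstad just outside, all at 5.94. With 1 array per group there is no test and no p-value. A gene is said to rise or fall only where ZT14 and ZT2 differed at least 1.5-fold (0.58 in log2), and for the other genes the values alone are given. The closest measure of technical error within these arrays is the disagreement between probesets of the same gene, whose night changes had a pooled SD of 0.17 over the 577 genes with several probesets.

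The circadian clock of SCN neurons is a transcriptional feedback loop. CLOCK and BMAL1 (gene Arntl) bind E-box elements and switch on the Period, Cryptochrome and Nr1d genes, whose products then act back as repressors. The same elements drive output genes, and REV-ERB and ROR proteins, D-box factors and cyclic AMP response elements (CRE) add further arms. Light reaches the SCN through the retina, and in the SCN glutamate and PACAP signals act on MAP kinases and the factor CREB. A set of phosphatases and kinases that those signals induce limits the response.

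The promoters of several genes that moved carried the E-box CACGTG or the full CRE TGACGTCA, both of which read the same on either strand. The E-box stood in 22.2% of rising and 13% of falling genes, against 11.8% of all genes past the floor. For the CRE these shares were 0%, 7.41% and 3.66%. The stretches below are shown because they belong to genes that moved at least 1.5-fold the same way at night with and without the pituitary. They come from RefSeq (build GRCm38.p6), run 5′ to 3′ on the strand of the gene, end before the annotated start site, and have the element in capitals.
Cry1 (chr10:85185082-85185141, minus strand, higher at night): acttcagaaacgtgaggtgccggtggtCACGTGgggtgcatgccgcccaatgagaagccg
Tafa4 (chr6:97060495-97060554, minus strand, higher at night): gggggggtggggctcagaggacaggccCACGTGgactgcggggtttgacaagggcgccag
Galnt9 (chr5:110544175-110544234, plus strand, higher at night): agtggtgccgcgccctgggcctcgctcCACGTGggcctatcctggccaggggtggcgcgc
Prok2 (chr6:99726495-99726554, minus strand, lower at night): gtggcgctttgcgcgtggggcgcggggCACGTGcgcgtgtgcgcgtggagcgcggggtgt
Per1 (chr11:69098756-69098815, plus strand, lower at night): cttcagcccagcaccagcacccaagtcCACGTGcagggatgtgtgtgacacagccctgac
Bhlhe41 (chr6:145865541-145865600, minus strand, lower at night): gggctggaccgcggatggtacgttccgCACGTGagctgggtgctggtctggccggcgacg
Ciart (chr3:95882240-95882371, minus strand, lower at night): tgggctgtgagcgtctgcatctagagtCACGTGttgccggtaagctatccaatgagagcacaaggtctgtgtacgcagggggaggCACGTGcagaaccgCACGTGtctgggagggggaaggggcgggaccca
Dusp1 (chr17:26508566-26508642, minus strand, lower at night): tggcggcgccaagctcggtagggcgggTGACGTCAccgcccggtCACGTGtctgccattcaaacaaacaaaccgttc
Rcan1, upstream start (chr16:92466328-92466387, minus strand, lower at night): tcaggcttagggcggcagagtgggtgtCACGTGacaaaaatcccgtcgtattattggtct
Rcan1, inner start (chr16:92400219-92400280, minus strand, lower at night): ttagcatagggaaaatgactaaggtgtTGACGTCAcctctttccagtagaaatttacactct

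The Ciart stretch holds 3 E-boxes, that of Dusp1 a CRE next to an E-box, and Rcan1 a CRE at one start and an E-box at the other. E-boxes stood in front of genes that moved in opposite directions, as Cry1 and Per1 show.

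The tissue was checked against its markers. All 14 SCN neuron markers, among them the peptide genes Vip, Avp, Grp and Nms and the receptor Vipr2, passed the floor, and Prok2 alone dropped under it on the ZT14 array. The arrays also read markers of other hypothalamic neurons, and where that signal came from was not tested. The oxytocin gene Oxt stood at 10.80 and 10.75, the catecholamine enzyme Th at 7.03 and 6.89 and the histamine enzyme Hdc at 6.59 and 7.11. In HPX, Oxt read 8.37 and 9.28, Th 6.06 and 5.86, and Hdc 6.48 and 7.38. In all, 6 of 13 measured markers of other hypothalamic neurons passed the floor, while Crh, Hcrt, Pmch, Pomc, Kiss1, Gnrh1 and Ghrh did not. The mean log2 level over all 13 was 6.23 at ZT2 and 6.30 at ZT14, and 5.96 and 6.03 in HPX. Over the 6 past the floor it was 7.82 and 7.85, and 7.11 and 7.36 in HPX. These differences between states were not tested. Pituitary hormone genes were under the floor except Lhb (5.60 and 5.98), at a mean level of 4.43 and 4.69 over 7 genes. The Y-linked genes Eif2s3y, Uty and Kdm5d passed and Xist read 3.18 and 3.40, with no such gene on different sides of the floor at the 2 times. In pooled tissue, fewer cells of a type and less RNA per cell cannot be told apart.

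At ZT14, 45 genes had risen, 0.406% of the 11090, and 83 had fallen, 0.748%, which together make 1.15%. The balance depends on the filter, since without it 487 genes rose and 318 fell, and rising genes made 60.5% of those that moved in place of 35.2%. The night changes of all genes had a median of -0.03, with 1% of genes under -0.55 and 1% above 0.45. Of the genes that moved, 6 rose and 17 fell at least 2-fold. The lower of the 2 values lay under the floor in 14 of the 45 and 38 of the 83, so the sizes of those changes are less certain. Every one of the 128 genes rested on 1 probeset. The share past 1.5-fold was 1.69% and 1.55% in the 2 lower bins of expression and 0.577% and 0.793% in the 2 upper ones, with 4 bins of equal size.

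**Figure D1:**
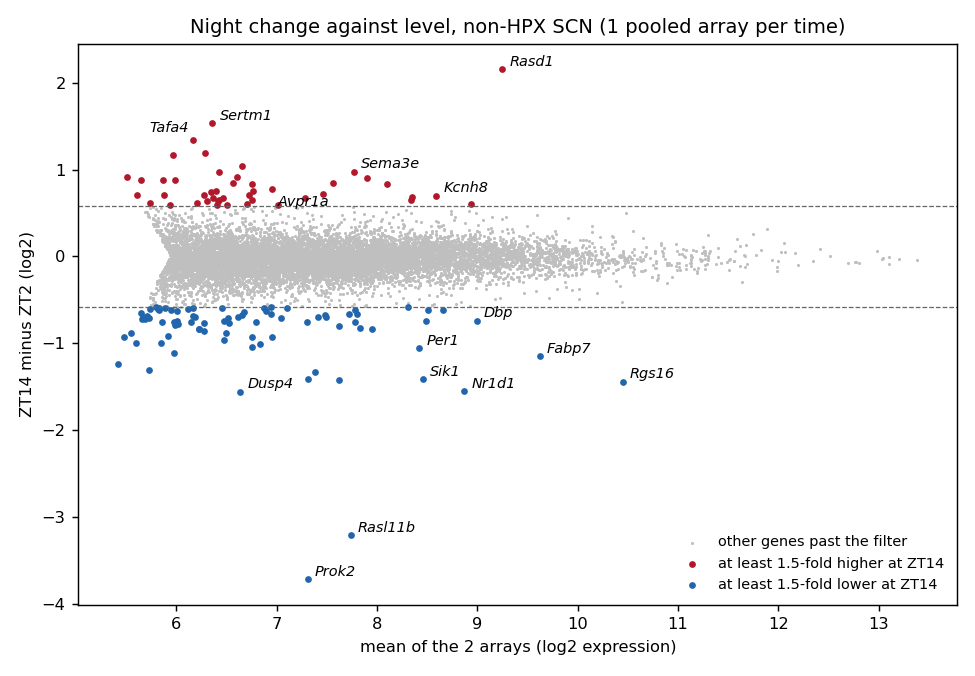
Night change (ZT14 minus ZT2, log2) of each of the 11090 genes of the non-HPX SCN against the mean of its 2 arrays (log2 expression). Red points are the 45 genes at least 1.5-fold higher at ZT14, blue points the 83 at least 1.5-fold lower, and dashed lines mark 1.5-fold. Prok2 and Rasl11b lie far below all other genes, and Rasd1 lies highest.

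Among the genes that fell, the secreted peptide gene Prok2 moved most. Prok2 encodes prokineticin 2, an output signal of the SCN known to shape the daily timing of locomotor activity. Its value was 9.17 at ZT2 and 5.45 at ZT14, a 13.2-fold difference that ends under the floor. Rasl11b, a Ras-like small GTPase, followed with 9.34 and 6.13, or 9.27-fold. The other genes of the SCN peptide list stayed short of 1.5-fold. Of 12 members past the floor of that list, which also holds the calcium-binding protein genes Calb1 and Calb2, 0 rose and 1 fell. Their median change was -0.02. Vip, the peptide of the light-receiving core, read 11.62 and 11.88. Avp, that of the shell, read 11.29 and 11.33, and Grp 8.37 on both arrays. The cholecystokinin gene Cck came closest to the threshold with 9.21 and 8.64, a change of -0.58. Nmu, Pdyn, Tac1 and Nts lay under the floor.

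Among 10 members past the floor of the peptide receptor list, which also holds the melatonin receptor Mtnr1a, 1 rose and 0 fell. The gene that rose was Avpr1a, the V1a vasopressin receptor through which SCN neurons signal to each other. It read 6.57 at ZT2 and 7.34 at ZT14 (1.71-fold). Vipr2, the receptor for VIP, followed at 10.23 and 10.73, a change of 0.50 that stays short of the threshold. Npbwr1, a receptor gene outside the lists whose ligands are neuropeptides B and W, rose from 5.94 to 6.91, starting at the floor. The melatonin receptor Mtnr1a read 6.77 and 7.09, the galanin receptor Galr1 6.90 and 6.52, and the prokineticin receptor Prokr2 8.79 and 8.89. The transcript of the ligand Prok2 thus fell while that of its receptor differed by 0.10.

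The repressor side of the clock carried most of the night changes among clock genes. Of 10 repressors past the floor 1 rose and 4 fell, and their median was -0.43 against -0.03 over all genes. Nr1d1, which encodes REV-ERBα and represses Arntl, fell from 9.65 to 8.09 (2.94-fold). Per1 fell from 8.95 to 7.89 (2.09-fold). Bhlhe41 (DEC2) fell from 8.25 to 7.42 and Ciart (CHRONO) from 7.40 to 6.68. Cry1, the partner of the PER proteins, moved the other way from 7.14 to 7.99 (1.80-fold). The remaining repressors did not reach 1.5-fold. Nr1d2 differed by -0.55, Bhlhe40 by -0.31, Cry2 by -0.17, Per3 by 0.05 and Nfil3 by 0.34. Paralogs differed in size: Per1 against Per3, Cry1 against Cry2 and Bhlhe41 against Bhlhe40. The Period gene Per2 was not analysed here.

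None of the 6 activators past the floor moved at least 1.5-fold. Arntl read 8.65 at ZT2 and 9.18 at ZT14 (a change of 0.52), Npas2 7.20 and 7.40, and Clock 10.24 and 10.46. Rorb, a nuclear receptor abundant in the SCN that drives Arntl, read 10.70 and 10.17, a change of -0.53. Of the D-box factors, Dbp fell from 9.37 to 8.62 (1.68-fold), and Tef and Hlf changed by -0.29 and -0.26 in the same direction. The list of clock kinases and ligases, which also holds the deubiquitinase gene Usp2, had 6 members past the floor. They lay between -0.15 and 0.02.

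**Figure D2:**
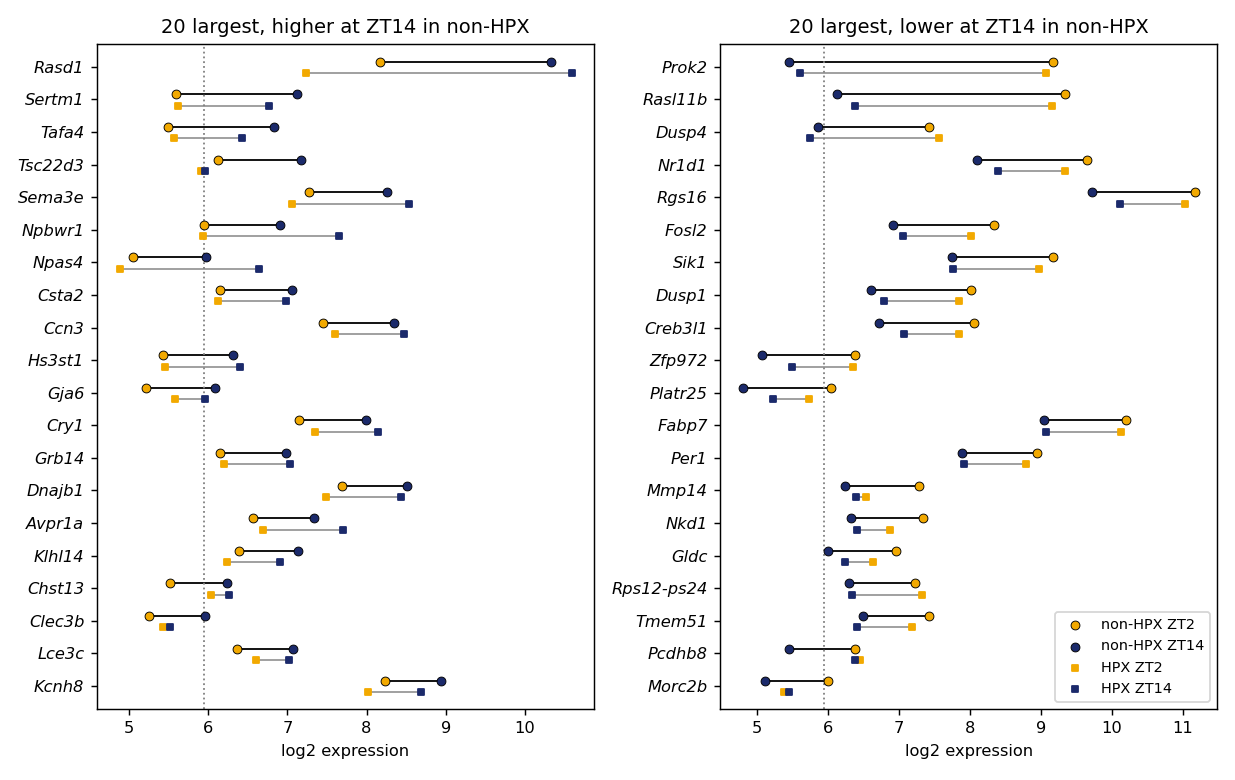
Log2 expression on the 4 arrays for the 20 named genes that rose most and the 20 that fell most in the non-HPX SCN, yellow for ZT2 and dark blue for ZT14. Circles joined by black lines are the non-HPX pair, squares joined by grey lines the HPX pair, and the dotted line is the floor of 5.94. Tsc22d3, Mmp14 and Pcdhb8 have a long black line and a short grey one.

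Several brakes on MAP kinase and CREB signalling fell at night. Of 19 members past the floor of a list that also holds the CREB coactivators Crtc1 and Crtc2, 0 rose and 4 fell, 16 had a change below 0 (6417 of 11090 for all genes), and the median was -0.27. The MAP kinase phosphatases Dusp4, Dusp1 and Dusp10 fell from 7.42 to 5.86, from 8.02 to 6.61 and from 6.84 to 6.10. Sik1, a kinase that holds the CREB coactivators CRTC in check and limits phase shifts to light, fell from 9.17 to 7.75 (2.67-fold). Further members stayed short of the threshold, Dusp16 at -0.51, Spry4 at -0.44 and Crem at -0.40. The largest value above 0 was that of Dusp7, a cytosolic ERK phosphatase, with 7.11 at ZT2 and 7.59 at ZT14. Dusp5 had 5.71 and 4.96 and is not counted, since both values lay under the floor. Rcan1, an inhibitor of calcineurin outside the list, fell from 8.37 to 7.53, and the phosphatase gene Ptp4a1 from 7.68 to 6.92.

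Immediate early genes, which are switched on within minutes of a stimulus, moved in both directions. Of 14 past the floor 1 rose and 4 fell, 12 had a change below 0 (6417 of 11090 for all genes), and the median was -0.28. Of the 10 under the floor 8 had a change above 0, and over all 24 measured members the median was -0.03, with 14 below 0. A lean upward at low level was not particular to them. Without the filter, rising genes made 60.5% of all genes that moved, in place of 35.2%. Fosl2, a partner of JUN proteins in the AP-1 factor, fell from 8.33 to 6.91. The orphan receptors Nr4a1, Nr4a2 and Nr4a3 fell together, from 7.84 to 7.14, 6.93 to 6.05 and 8.13 to 7.47. Npas4, which neuronal activity induces, rose from 5.05 to 5.97, barely past the floor. Fos itself read 6.63 and 6.27, Junb 6.64 and 6.24, and Arc 7.04 and 6.73, all short of 1.5-fold. Egr1 pointed upward, with 5.70 and 6.22. The direction was thus not the same for all early genes. Members under the floor included Fosb, Egr2 and Egr3. Plk2 and Tob1, not in the list, fell from 8.09 to 7.47 and from 8.81 to 8.20.

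Small GTPases of the Ras superfamily held the largest rise of all genes and, after Prok2, the largest fall. Of 14 members past the floor of a list that also holds the GTPase-activating protein gene Rap1gap, 1 rose and 3 fell, with a median of -0.10. Rasd1 (Dexras1), known as a modulator of the response of the SCN clock to light, rose from 8.17 to 10.33 (4.45-fold). Beside Rasl11b, the channel-regulating GTPases Gem and Rrad fell, with changes of -0.68 (to 6.32) and -0.86 (to 5.85). The other members lay between -0.41 (Rasd2) and 0.35 (Rerg), so the close relative Rasd2 did not follow Rasd1. Among 15 genes past the floor in a list of regulators of G protein signalling, which also holds the binding protein gene Rgs7bp, 1 fell. Rgs16, which SCN neurons use to time cyclic AMP signals, fell from 11.17 to 9.72 (2.72-fold), while the other 14 past the floor lay between -0.29 and 0.10. In the cyclic AMP list 1 of 25 fell, the phosphodiesterase Pde10a (7.82 and 7.14). Pde2a read 10.26 and 9.77, short of the threshold.

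Several genes that rose encode secreted or membrane proteins. Sertm1, a small transmembrane protein, rose from 5.59 to 7.12 (2.89-fold). The chemokine-like secreted protein gene Tafa4 rose from 5.49 to 6.84 (2.54-fold), while Tafa1 and Tafa5 changed by 0.01 and -0.28. Sema3e, an axon guidance cue that signals through a plexin, rose from 7.28 to 8.25. Of 32 semaphorin, slit and netrin genes and receptors past the floor it was the only one to move, the others lying between -0.52 and 0.28. Hs3st1, which adds a rare sulfate to heparan sulfate, rose from 5.42 to 6.31, and the other 13 enzymes of that pathway stayed between -0.42 and 0.27. The matricellular protein gene Ccn3 (7.45 and 8.35), the galactosaminyltransferase Galnt9 (6.11 and 6.70) and the Wnt receptor Fzd8 (6.40 and 7.01) rose too. Nkd1, a feedback inhibitor of Wnt signalling, fell from 7.33 to 6.33.

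Intracellular night-high genes included the insulin receptor adaptor Grb14 (6.14 and 6.99), the stress kinase Map3k5 (8.01 and 8.69), the actin cross-linker Actn1 (8.02 and 8.66) and the cysteine protease inhibitor Csta2 (6.15 and 7.06). Csta2 has close copies in the genome, and which copy the probes read is uncertain. The chaperone Dnajb1 rose from 7.68 to 8.52, alone among 21 heat shock genes past the floor. The chaperones Hspa8 and Hsp90aa1 changed by -0.09 and 0.03. The potassium channel Kcnh8 rose from 8.24 to 8.94. It was not in the channel list, where 0 of 27 rose and 1 fell, Kcnf1 with 6.05 and 5.36. The sterol enzyme Hsd17b7 rose from 6.02 to 6.70, 1 of 20 genes of cholesterol synthesis, in which the squalene epoxidase Sqle (7.93 and 8.38) and Msmo1 (7.83 and 8.34) came next.

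Further genes that fell belonged to other roles. Creb3l1, a membrane-bound transcription factor of the secretory pathway, fell from 8.05 to 6.72. Fabp7, the brain fatty acid-binding protein of astrocytes, fell from 10.20 to 9.05 (2.22-fold). The 9 other astrocyte markers lay between -0.05 and 0.10, so Fabp7 moved without them. The membrane protease Mmp14 fell from 7.28 to 6.23, the glycine-cleaving enzyme Gldc from 6.96 by 0.96, and the natriuretic peptide gene Nppa from 6.53 to 5.77. Chodl fell from 8.02 to 7.22 and the immune gene Ly86 from 7.76 to 7.06. Pcdhb8, of the clustered protocadherins that give neurons a surface identity, fell from 6.37 to 5.45. In that cluster 12 of 13 members past the floor had a change below 0 (6417 of 11090 for all genes). Their median was -0.29 in non-HPX (-0.03 for all genes) and -0.13 in HPX (0.04 for all genes). Of 10 members under the floor 1 had a change above 0. Its members are similar copies whose probes may share signal.

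Several groups held no gene past 1.5-fold. Among 32 genes of GABA and glutamate signalling the changes ran from -0.30 to 0.29. The 29 genes of the synaptic vesicle release list, which also holds the secretory granule genes Scg2, Chga, Chgb, Pcsk1 and Cpe, ran from -0.20 to 0.34. The 24 calcium, sodium and pacemaker channels ran from -0.45 to 0.26. Of 69 subunits of the respiratory chain and ATP synthase 0 moved, although 57 had a change below 0 (6417 of 11090 for all genes), with a median of -0.08. The 48 ribosomal protein genes had a median of -0.02 and 61 small nucleolar RNAs one of -0.09. Thyroid hormone genes (8 past the floor, among them its receptors and a transporter as well as genes that answer to it), genes of NAD and fuel metabolism (16) and genes of the interferon response (6) had medians of -0.03, -0.10 and 0.01, and 0 of them moved. In a list of cold-inducible and clock-linked RNA-binding proteins that also holds the protein kinases Clk1 and Clk4, 7 of 7 genes lay above 0 (4663 of 11090 for all genes). The sizes, 0.03 to 0.20, were close to or under the SD of 0.17 between probesets. Their median was 0.13 in non-HPX and -0.06 in HPX. Sesn2 (6.38 and 5.64) was the sole mover of 20 endoplasmic reticulum stress genes, whose median was 0.09.

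Markers of other cells moved little. Oligodendrocyte markers had a median change of 0.02 over 10 genes and microglial markers -0.11 over 7. The few markers of oligodendrocyte precursors (3), ependyma and choroid plexus (4) and meninges (2) past the floor had medians of 0.29, 0.09 and 0.00, and 0 of them moved. None of the 5 blood markers was analysed here. Of 10 endothelial and mural markers 0 moved at least 1.5-fold and 9 had a change below 0 (6417 of 11090 for all genes), with a median of -0.18 and mean log2 levels over 12 measured genes of 6.77 at ZT2 and 6.60 at ZT14. The same means in HPX were 6.81 and 6.84. Their part in the falls of Mmp14, Podxl (6.01 and 5.29) and Tgfb1 (6.12 and 5.51), genes that vessels also express, was not tested.

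**Figure D3:**
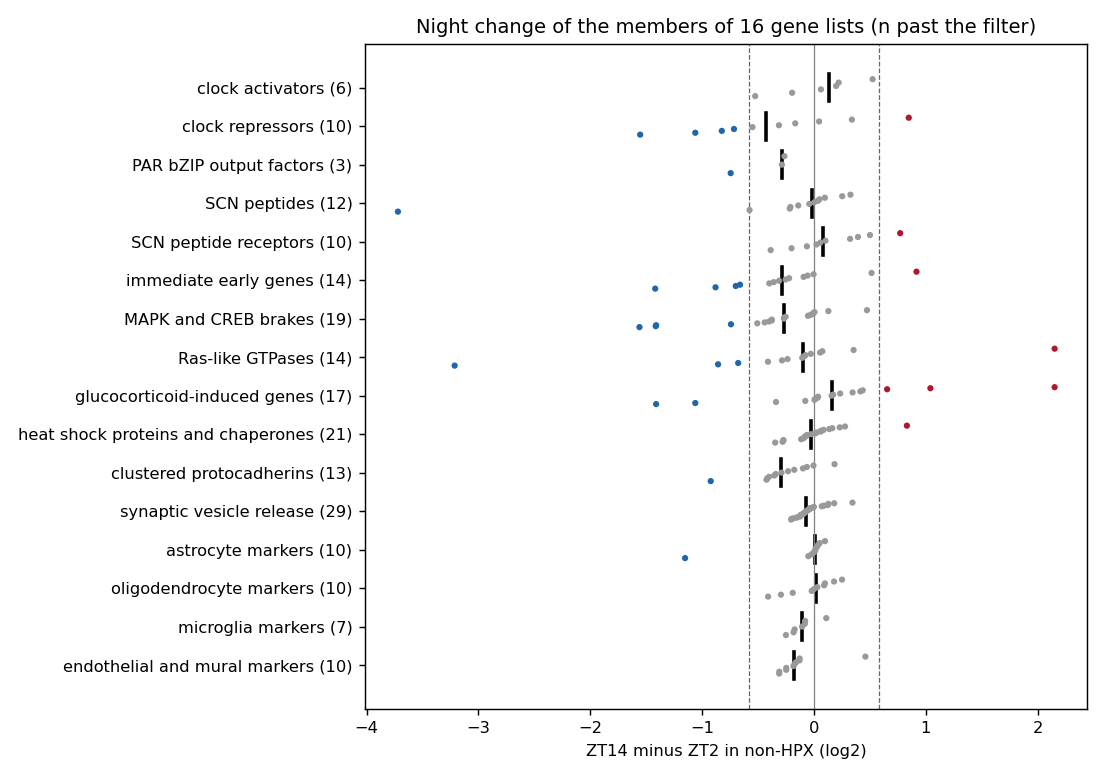
Night change (log2) of each member past the floor for 16 gene lists in the non-HPX SCN, with the number of such members in parentheses. Red and blue points are members at least 1.5-fold higher or lower at ZT14, the black bar is the list's median and dashed lines mark 1.5-fold. Clock repressors, immediate early genes and MAPK and CREB brakes have medians of -0.43, -0.28 and -0.27, and each also holds members above 0.

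The HPX pair measured the same night change in other animals. There 0.911% of the same 11090 genes were at least 1.5-fold higher at ZT14 and 0.794% lower. Of the 45 genes that rose in non-HPX, 21 (46.7%) also rose in HPX, where they made 20.8% of the 101 that rose. Of the 83 that fell, 36 (43.4%) also fell, 40.9% of the 88 that did so in HPX. None moved at least 1.5-fold in the opposite direction, and 37 of the 45 (82.2%) and 74 of the 83 (89.2%) kept their sign, where 58.7% of all 11090 genes had an HPX change above 0. The median change of the 45 was 0.72 in non-HPX and 0.49 in HPX, and that of the 83 was -0.75 and -0.51. These genes were chosen by their non-HPX change, so the sizes are given as a description. Among those that passed in both, the change was larger in non-HPX for 10 of the 21 and 23 of the 36.

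Output, clock and signalling genes were among those shared. In HPX, Prok2 read 9.08 and 5.61, Rasl11b 9.16 and 6.38, and Rgs16 11.03 and 10.11. Dusp4 (7.56 and 5.74), Sik1 (8.98 and 7.76) and Dusp1 (7.84 and 6.79) fell again. All 5 clock repressors that had moved did so again, Cry1 by 0.80, Per1 by -0.87, Nr1d1 by -0.95, Bhlhe41 by -0.86 and Ciart by -0.70. Rasd1 had 7.24 at ZT2 and 10.59 at ZT14, a night change of 3.35 against 2.15 with the pituitary. Sema3e, Npas4 and Npbwr1 likewise had larger values of the change in HPX (1.47, 1.76 and 1.72), and Tafa4 and Sertm1 smaller ones (0.85 and 1.14). These differences between states have no replicate and were not tested. Arntl passed 1.5-fold in HPX (8.44 and 9.35) and not in non-HPX.

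**Figure D4:**
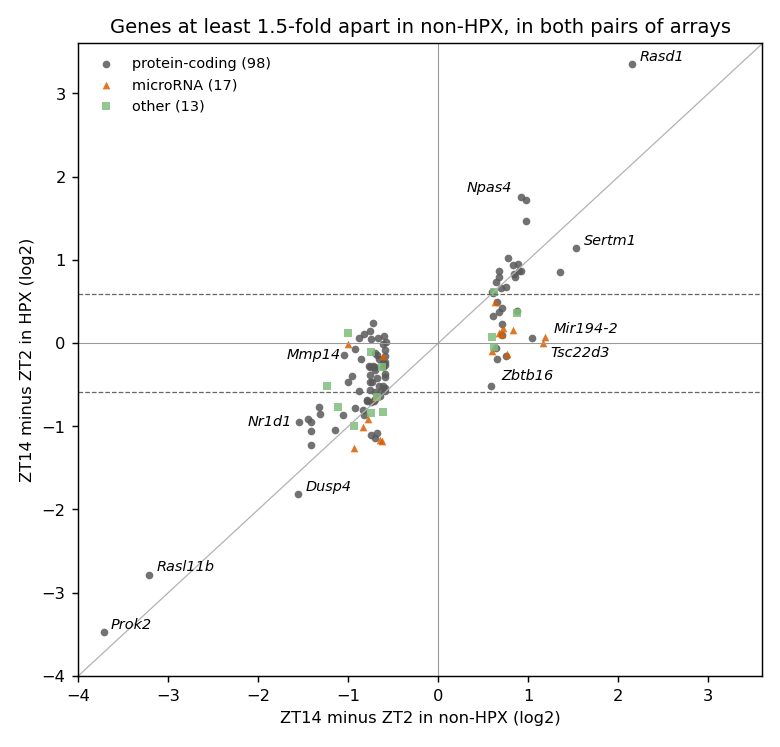
Night change (log2) of the 128 genes that moved at least 1.5-fold in non-HPX, plotted on the x axis, against the change of the same genes in HPX on the y axis. Circles are protein-coding genes, triangles microRNA genes and squares other genes, the diagonal marks equal changes and dashed lines mark 1.5-fold in HPX. Prok2, Rasl11b and Rasd1 lie far out in both pairs, while Tsc22d3, Zbtb16 and Mir194-2 lie near 0 in HPX.

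The genes that moved in non-HPX and not in HPX were 24 higher and 47 lower ones. Tsc22d3 (GILZ), a transcript that glucocorticoids induce in many tissues, rose from 6.13 to 7.17 with the pituitary and read 5.90 and 5.96 without it. Zbtb16, a transcription factor that these hormones also induce, rose from 6.43 to 7.08 and read 6.29 and 6.09 in HPX. For both genes the non-HPX night array stood above the other 3. Glucocorticoids are adrenal hormones under pituitary control, and in nocturnal rodents they peak near dusk. Of 17 genes past the floor in a list known to be induced by glucocorticoids, 3 rose (Rasd1, Tsc22d3 and Zbtb16) and 2 fell (Per1 and Dusp1). A change above 0 was seen in 13 (4663 of 11090 for all genes), and the median was 0.16 (-0.03 for all genes). Gpd1, Lcn2, Plin4 and Arrdc2 lay under the floor, and 3 of these 4 had a change above 0. In HPX the median of the 17 was -0.00 (0.04 for all genes). A part of glucocorticoids in these values was not tested. The members that moved went different ways, since Rasd1 rose in HPX as well, and Per1 and Dusp1 fell there. Sgk1 (5.93 and 6.37) and Sult1a1 (5.86 and 6.27) came next in non-HPX, and their HPX changes were 0.39 and -0.36. Fkbp5 had 5.85 and 6.02, and Klf9 had 8.21 and 8.25.

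On the falling side, Mmp14 read 6.54 and 6.39 in HPX, Pcdhb8 6.44 and 6.37, and Tgfb1 5.73 and 5.82, while Sesn2 changed by 0.05. Nr4a1 and Rrad, whose non-HPX changes were -0.70 and -0.86, changed by -0.12 and -0.20 in HPX, while Nr4a2 (-0.58) and Nr4a3 (-0.51) came close to the threshold there. For Mmp14 the non-HPX day array was the high one, and for Pcdhb8 the non-HPX night array was the low one. Over the genes that moved in non-HPX alone, the ZT2 array lay farther from the HPX mean in 15 of the 24 higher and 25 of the 47 lower ones. The same count over all genes past the floor was not made, so these shares have no background beside them. With 1 array per group, surgery, animals and array cannot be told apart for these genes.

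Protein-coding and microRNA genes are given apart, and a difference between them was not tested. Among 10390 protein-coding genes 32 rose and 66 fell, and 20 of the 32 (62.5%) and 25 of the 66 (37.9%) moved the same way in HPX. Among 137 microRNA genes past the floor 9 rose and 8 fell, 12.4% against 1.15% for all genes, and the share in HPX was 13.1%. None of the 9 that rose did so in HPX, whereas 6 of the 8 that fell also fell there. MicroRNAs are short RNAs that pair through their seed with messages and lower their output. Their genes are named here as annotated, and the files do not say whether a probeset reads the precursor or the mature form.

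Mature sequences from RefSeq (GRCm38.p6) matched 13 of the 17 genes by identifier. Those shown belong to the largest rise that mature sequences cover (both miR-194 loci) and to microRNAs that fell in both pairs, with the seed (bases 2 to 8) in capitals.
miR-194-5p, from Mir194-1 and Mir194-2: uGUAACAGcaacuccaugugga
miR-194-1-3p: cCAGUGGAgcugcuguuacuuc
miR-194-2-3p: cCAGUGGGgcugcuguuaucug
miR-212-5p: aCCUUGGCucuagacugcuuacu
miR-212-3p: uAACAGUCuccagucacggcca
miR-344e-3p: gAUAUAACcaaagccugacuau
miR-344e-5p: cAGGCUUCuggcuauauucc
miR-5119: cAUCUCAUccuggggcugg

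The miR-194 loci lie on chromosomes 1 and 19 and yield the same 5p form, so their probesets could share signal. Mir194-2 read 5.69 at ZT2 and 6.88 at ZT14 (2.27-fold) and Mir194-1 read 5.92 and 6.63. In HPX they stood at 6.72 and 6.79, and at 6.25 and 6.36. The non-HPX day array was thus the low one of the 4. Among the 9 microRNA genes that rose, which were chosen for a ZT2 value under their ZT14 value, the ZT2 array lay farther from the HPX mean than the ZT14 array in 7. Examples are Mir483 (6.34 and 7.17, HPX 7.01 and 7.17) and Mir1943 (6.01 and 6.77, HPX 6.81 and 6.68). The same count over all microRNA genes past the floor was not made. Over all 137 genes the medians per array were 6.72 and 6.82 in non-HPX and 6.77 and 6.84 in HPX.

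Mir212, which CREB induces in neurons and which shares its cluster with Mir132, fell 1.56-fold to 6.35 in non-HPX and 2.25-fold to 5.94 in HPX. Mir132 read 4.22 and 4.18, under the floor. Mir5119 fell from 5.95 to 5.01 and Mir344e 1.78-fold to 5.80, and in HPX they changed by -1.26 and -1.01. Mir383, Mir669a-3 and Mir466h also fell in both pairs, with non-HPX changes of -0.78, -0.70 and -0.63. Mir669a-3, Mir297b and Mir466h lie in 1 cluster of similar copies, and Mir297b moved opposite to its neighbours. Mir181b-1 fell from 6.10 to 5.10 in non-HPX alone.

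Elements were counted in promoters of 300 bases, 250 before and 50 after the start, on both strands, and no motif contains another. The E-box CACGTG stood in 22.2% of the 27 rising genes with a promoter in the RefSeq table (6 genes), in 13% of the 54 falling ones (7 genes), in 11.8% of all genes past the floor and in 8.09% of all 27025 genes. Of the genes that moved in both pairs, 4 of 15 rising and 6 of 21 falling ones held it. Sema3e holds its E-box after the start site. The CRE TGACGTCA stood in 0 rising and 4 falling genes (Dusp1, Rcan1, Plk2 and Cnnm4), 7.41% against 3.66% past the floor. The D-box TTANGTAA stood in none of them, and in 1.78% of genes past the floor.

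The REV-ERB and ROR core TAGGTCA stood in 2 falling genes, Fabp7 and Morc2b (3.7% against 1.93%). The glucocorticoid core ACANNNTGT stood in 1 rising gene, Ctla2a, and 5 falling ones (9.26% against 4.91%); the windows of Tsc22d3 held none. The heat shock unit TTCNNGAA stood in 7.41% of either group against 7.67%. A match is a run of letters and no site shown to be bound, and with 27 and 54 genes these shares rest on few genes.

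Some genes that moved lie next to each other. Grb14 and Cobll1, with starts 176 kb apart, rose by 0.84 and 0.67 in non-HPX and by 0.83 and 0.87 in HPX. The long non-coding RNA gene C230024C17Rik, 19 kb from Rgs16, had a change of -0.62 beside -1.44 for Rgs16 (-0.29 and -0.92 in HPX). Zfp972 and Gm14327, 6 kb apart, fell by 1.31 and 1.12, but they are similar copies and may not be read separately. Podxl and Gm13848, 143 kb apart, moved in opposite directions (-0.72 and 0.87).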

How the data were processed

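Total RNA of laser-microdissected SCN was labelled with the WT PLUS kit (5.5 µg of fragmented cDNA), per the labels' protocols, and measured on 4 arrays, 1 per group. Per the submitters' processing notes, the authors used Expression Console of Affymetrix and its RMA method (robust multi-array average), to make the deposited log2 values (version: not given in the sources used here). The method brings all arrays to 1 intensity distribution, so a shift shared by most genes cannot be seen. Array number limits the precision, and no p-value was computed.

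Of 41345 probesets, 23521 had exactly 1 gene symbol in the platform annotation, 1814 had several and 16010 were not listed. Probesets were averaged per gene. Symbols were checked by Entrez identifier against RefSeq GRCm38.p6 (21994 of 22180 genes found, 0 symbols changed). Levels were not compared between probesets of different genes, so the most abundant genes are not ranked. Counts past 1.5-fold were computed in Python 3.11.15 with pandas 2.3.3 and tested on simulated data, and limma 3.58.1 served only for cyclic loess as an alternative.

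The genes, the 43 lists and the motifs were chosen with earlier results of these data known. Named genes are the 20 largest changes in each direction after leaving out predicted, clone-style and small RNA names by their pattern (the non-coding Platr25 and the pseudogene Rps12-ps24 stay in), list members, and the genes beside the floor. Other moved genes, such as Rcan1, Plk2, Map3k5 and the microRNAs, were chosen after their values were seen. Alternatives were no filter, a stricter filter, other folds, 1 probeset per gene, cyclic loess and leaving out predicted names.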

Additional observations from a re-analysis of the deposited data

Results flagged for a closer look

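Of the 128 genes that moved at least 1.5-fold in non-HPX, 17 had the opposite sign in HPX, 8 that rose and 9 that fell. For 3 of the 17 the opposite HPX change exceeded 0.17, the SD between probesets of a gene. That SD comes from non-HPX changes of genes with several probesets, while each of the 128 rests on 1, so it is a rough yardstick. For each of the 3 the difference between surgical states was not tested, since every group has 1 array. Reep4, a protein of the endoplasmic reticulum membrane, fell from 6.05 to 5.32 in non-HPX and changed by 0.24 in HPX (5.59 and 5.82). Ctla2a, a protease inhibitor, rose from 5.65 to 6.23 in non-HPX and changed by -0.52 in HPX (6.20 and 5.68). Zbtb16, a transcription factor induced by glucocorticoids, rose by 0.65 in non-HPX and changed by -0.20 in HPX. Each of these HPX changes was under 1.5-fold.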

How the results depend on the processing

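Without the filter 487 genes rose and 318 fell, so that rising genes made 60.5% of those that moved in place of 35.2%. A floor at the 75th percentile (7.42) left 11 and 27. Requiring both values at or above the floor left 31 that rose and 45 that fell, 22 of the latter shared with HPX. At 2-fold 6 rose and 17 fell, and at 1.3-fold 187 and 350. Cyclic loess, which moved the median of all genes from -0.03 to -0.01, gave 48 and 81, of which 45 and 78 were the same genes. The probeset with the highest mean in place of the average gave 46 and 81, and leaving out predicted names 31 and 66. After cyclic loess 0 of 42 list medians changed sign. Under cyclic loess the changes of all 573 genes checked stayed within 0.17 of the deposited ones, and 0 of the 128 that moved reversed. Members with small changes did cross 0, as 9 of 32 GABA and glutamate genes lay above 0 as deposited and 12 afterwards. The 1-probeset setting could not alter the changes of the 128, since each rests on 1 probeset. Under that setting the changes of Bsn, Cacnb4, Kcna4, Plxnb1, Slc32a1 and Tef moved by more than 0.17. The median of immediate early genes was -0.03 without the filter and -0.66 under the stricter one, which keeps fewer members. No fit with a replicate block could be made, since each group has 1 array, and a fit of time over both pairs with surgical state as a block, with 1 residual degree of freedom, was not run. The spread between animals was not measured, changes that start or end under the floor are uncertain in size, and a gene that moved in 1 pair alone cannot be assigned to surgery, animals or array.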

Other observations

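Probesets outside the gene table were counted as well. Of 5377 probesets past the floor that the annotation does not list, 347 rose and 244 fell at night in non-HPX, 11% against 1.16% of probesets with 1 gene. Of these, 43 and 55 moved the same way in HPX. Of probesets with 1 gene 48 rose and 88 fell, and 22 and 37 of them moved the same way in HPX. The unlisted ones were thus less often shared between the pairs, and what they read was not tested. Probeset 17448751 fell by 3.12 in non-HPX, from 6.79 to 3.66, and read 5.73 and 5.78 in HPX. Probeset 17453819 fell in both pairs, with changes of -1.66 and -1.10. No gene is given for either. Probesets with several gene names were closer to the named genes, with 6 of 817 rising and 3 falling.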
